A study of Rattus norvegicus with 2 samples.

Results

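Cytosolic ribosomal protein genes encode the proteins of the ribosome that translates messenger RNA outside mitochondria. They were taken here as all rows of the deposited expression table whose symbol is Rpl, Rps or Rplp followed by a number, with the short suffixes that mark relatives and copies, which gave 142 of 21224 rows. Of these, 87 rows carry large subunit names and 55 carry small subunit names, and together they hold 130 different symbols. The libraries came from cortical neurons of rat embryos at day E18. One culture had received a small interfering RNA against Ythdf3 (siYthdf3) and the other a negative control small interfering RNA (siNC). No other treatment, genotype or injury is named in the labels. Each group was 1 library, which leaves all differences without a replicate check and allows no p-value. Reads assigned to genes numbered 22586543 in siYthdf3 and 15392218 in siNC. Values are FPKM, reads scaled to the length of the gene model in kilobases and to the library's total of assigned reads.

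The large subunit joins amino acids and holds the tunnel through which the new protein leaves. The small subunit reads the messenger RNA. Ribosomal protein messenger RNAs are among the most abundant in a growing cell, and in mammals they begin with a C followed by a tract of C and T (U in the RNA), the 5′ terminal oligopyrimidine or TOP element, through which the growth kinase mTOR and the binding protein LARP1 set their translation and stability. Mammalian genomes hold many processed copies of these genes, which lack introns and can resemble the parent closely enough to share reads. YTHDF3 binds m6A, a methyl mark on messenger RNA, and in human cell lines it has been described as acting on translation together with ribosomal proteins.

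Sequences around the gene starts show where runs of C and T lie. The windows run from 30 bases before to 20 bases after the gene start as RefSeq lists it for the GRCr8 assembly, and capitals mark the longest unbroken run of C and T. The first group holds genes from the low end of the ratios of siYthdf3 over siNC (Rps6, Rps2, Rpl37a, Rps15) and the most abundant row (Rpl19). The second holds abundant genes with small differences (Rpl3, Rpl6), and the last holds the paralogue pairs Rps27 with Rps27l and Rpl22 with Rpl22l1.
Rps6 (chr5:106420521-106420570, minus strand): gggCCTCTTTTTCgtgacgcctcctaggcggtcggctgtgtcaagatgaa
Rps2 (chr10:14251818-14251867, plus strand): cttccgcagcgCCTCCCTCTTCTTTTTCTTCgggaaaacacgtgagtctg
Rpl37a (chr9:81748061-81748110, plus strand): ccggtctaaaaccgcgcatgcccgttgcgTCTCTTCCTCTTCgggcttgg
Rps15 (chr7:10068096-10068145, minus strand): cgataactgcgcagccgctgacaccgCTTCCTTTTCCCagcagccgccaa
Rpl19 (chr10:83519034-83519083, plus strand): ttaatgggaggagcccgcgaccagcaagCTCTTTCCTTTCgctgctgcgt
Rpl3 (chr7:113507971-113508020, minus strand): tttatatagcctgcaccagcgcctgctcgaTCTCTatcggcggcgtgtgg
Rpl6 (chr12:41011671-41011720, minus strand): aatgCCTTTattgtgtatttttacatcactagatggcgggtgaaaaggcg
Rps27 (chr2:177964587-177964636, minus strand): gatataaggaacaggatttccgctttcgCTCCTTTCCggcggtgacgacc
Rps27l (chr8:76443628-76443677, plus strand): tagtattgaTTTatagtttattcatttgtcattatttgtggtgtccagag
Rpl22 (chr5:168117931-168117980, plus strand): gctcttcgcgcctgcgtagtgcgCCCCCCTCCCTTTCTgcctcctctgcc
Rpl22l1 (chr2:113683166-113683215, plus strand): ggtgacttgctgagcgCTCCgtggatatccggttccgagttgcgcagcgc
The run was 20 bases in Rps2, 15 in Rpl22, 13 in Rpl37a, 12 in Rps15 and Rpl19, and 10 in Rps6. It was 9 bases in Rps27 and 3 in its paralogue Rps27l, and 4 bases in Rpl22l1. Listed starts can lie beside the start used in a given tissue. A marked run is therefore not in itself a TOP element, and in Rps6 it lies from 27 to 18 bases before the listed start. A short run says only that a longer one is not in this window.

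Among intron-bearing rows averaging at least 10 FPKM, 55 of 67 had a RefSeq start window, and 32 of the 55 (58.2%) held a run of 10 or more C and T on the coding strand. Over all 27457 RefSeq start windows of the same length the share was 9.18%. The opposite-strand pattern, a run of 10 or more A and G, was in 1 of the 55 (1.82%) and in 9.31% of all windows. The letters CTTTCC were in 14 of the 55 windows (25.5%) against 2.25% of all windows, and the reverse complement GGAAAG was in 0 of the 55 against 2.16%. Of the 14 windows, 11 held the run of 10 or more and 3 did not. CTTTCC is itself a stretch of C and T, so its share is not independent of the run. Rows with the run had log2 ratios (siYthdf3 over siNC) from -0.70 to -0.22 with a median of -0.31 over 32 genes, and rows without it from -0.41 to 0.13 with a median of -0.29 over 23 genes. The medians were close, and the ends differed. The 7 lowest of the 55 rows, from Rps6 to Rpl37, all held the run, and the 8 highest, from Rps7 to Rps27l, all lacked it. The split at the ends depends on the limit of 10 bases and on the listed starts, which can lie beside the start used. Among the highest rows Rps7 and Rpl39 had runs of 9 bases and Rpl13 of 8, and the rest had 3 to 5. Among the lowest, Rps6 had a run of 10, which lies from 27 to 18 bases before its listed start. Intron-bearing rows without a window, such as Rps20 at -0.42 and Rps25 at -0.12, are not in this ranking. This is a description of ranked rows and was not tested. The 5 intron-free rows with a window held no such run.

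Ribosomal protein genes were lower in siYthdf3 nearly throughout. Together the 142 rows took 1.33% of the assigned reads in siYthdf3 and 1.66% in siNC, from 300969 and 255643 reads. The ratio of these shares was 0.802, with an exact 95% counting interval of 0.798 to 0.807. Intervals here and below cover counting error only, not differences between cultures or library preparations. Their summed level was 12179 FPKM with siYthdf3 and 15174 with siNC.

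Row by row, the measure was log2 of siYthdf3 over siNC after adding 0.5 FPKM, for rows averaging at least 1 FPKM. This filter kept 99 of the 142 rows. Of these 99, 88 lay below 0 and 11 above, where 51.9% of all 13172 rows of the table that passed the filter lay below 0. At least 1.2-fold lower in siYthdf3 were 55 rows, where the share over all rows was 15.4%. The count was 36 after a trend of the ratio over gene length was removed, a setting for which the share over all rows was not computed. At least 1.2-fold higher were 4 rows, against 12.4% over all rows. At 1.5-fold, 8 rows were lower and 1 was higher, where 3.95% and 2.41% of all rows were. No member was 2-fold lower or higher, where 0.896% of all rows were 2-fold lower and 0.706% were 2-fold higher. Counting intervals of the FPKM ratio lay below 1 for 70 rows and above 1 for 0 rows, against 22.2% and 20% of all rows. The median log2 ratio of the members was -0.30, with quartiles of -0.37 and -0.19. The median over all rows was -0.01, with quartiles of -0.17 and 0.14.

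**Figure D1:**
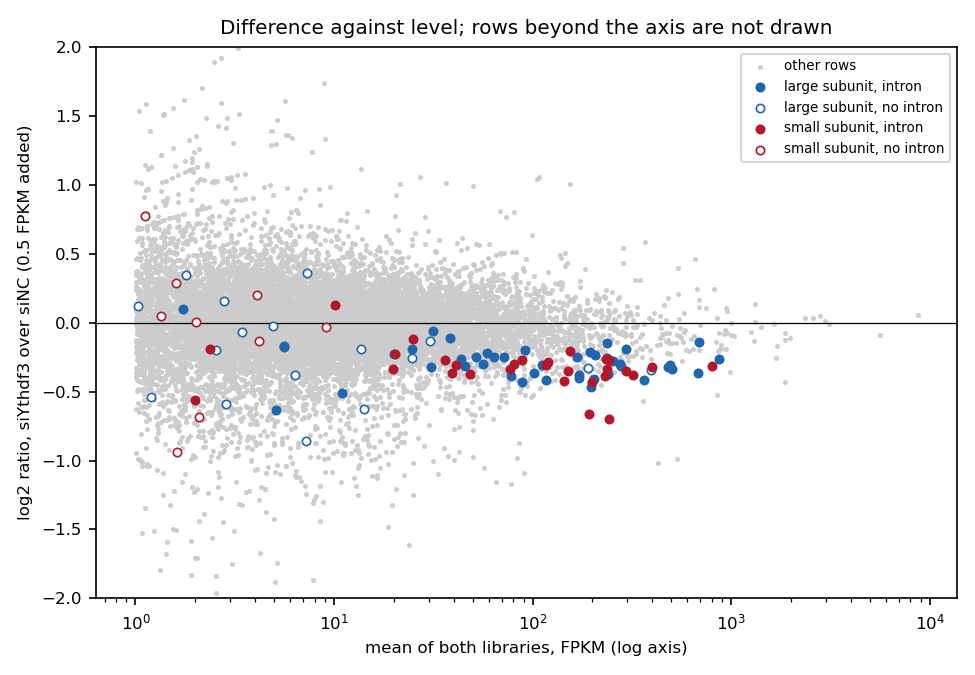
Log2 ratio of siYthdf3 over siNC (0.5 FPKM added) against the mean of both libraries in FPKM, log axis, for rows averaging at least 1 FPKM. Grey points are rows that are not members, blue and red are large and small subunit members, filled for gene models with an intron and open for models without. Members averaging at least 10 FPKM form a narrow band near -0.31, and members of lower level scatter from -0.94 to 0.77.

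Abundant rows of other genes had smaller differences. Rows outside the family averaging at least 100 FPKM had a median of -0.06 over 534 rows, and 56 of them (10.5%) were at least 1.2-fold lower. Restricted to gene models of up to 2000 bases, since members are short (median 704.5 bases, against 2512 over all rows), the median was -0.10 over 232 rows and 35 (15.1%) were at least 1.2-fold lower. Members averaging at least 100 FPKM had a median of -0.33 over 42 rows, and 32 (76.2%) were at least 1.2-fold lower. All 42 had an interval below 1, as had 51.9% of the 534 other rows, so intervals alone say little at this depth.

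Levels in both libraries can be set side by side. Over the 73 members averaging at least 10 FPKM, the log2 levels in siYthdf3 and siNC had a Pearson r of 0.997 and a Spearman rho of 0.994, a description across genes that share gene model and counting, and values near 1 follow from the wide span of levels. The ratio went weakly with level (rho of -0.24) and with model length (rho of 0.10) over the same 73 rows. Members that passed the filter lay on 20 chromosomes, and the median ratio was below 0 on each of them.

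The most abundant row was Rpl19 (ENSRNOG00000004741, chromosome 10, 83019257 to 83052112, plus strand), a protein of the large subunit near the tunnel exit. It was at 789 FPKM with siYthdf3 and 946 with siNC, a ratio of 0.835 (interval 0.814 to 0.855). Rpl6 was at 652 FPKM with siYthdf3 and 719 with siNC, a log2 ratio of -0.14. Rplp2, an acidic protein of the stalk, was at 591 FPKM with siYthdf3 and 762 with siNC, at -0.37. All 8 rows of the highest mean level were lower in siYthdf3. They also included Rpl17, Rpl26, the row of Rpl32 and Rps23, between -0.33 and -0.31. Coordinates of rows come from the deposited table for which the sources used here give no build, so they differ from the GRCr8 windows above. The span of Rpl19 overlaps Stac2 on the opposite strand.

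**Figure D2:**
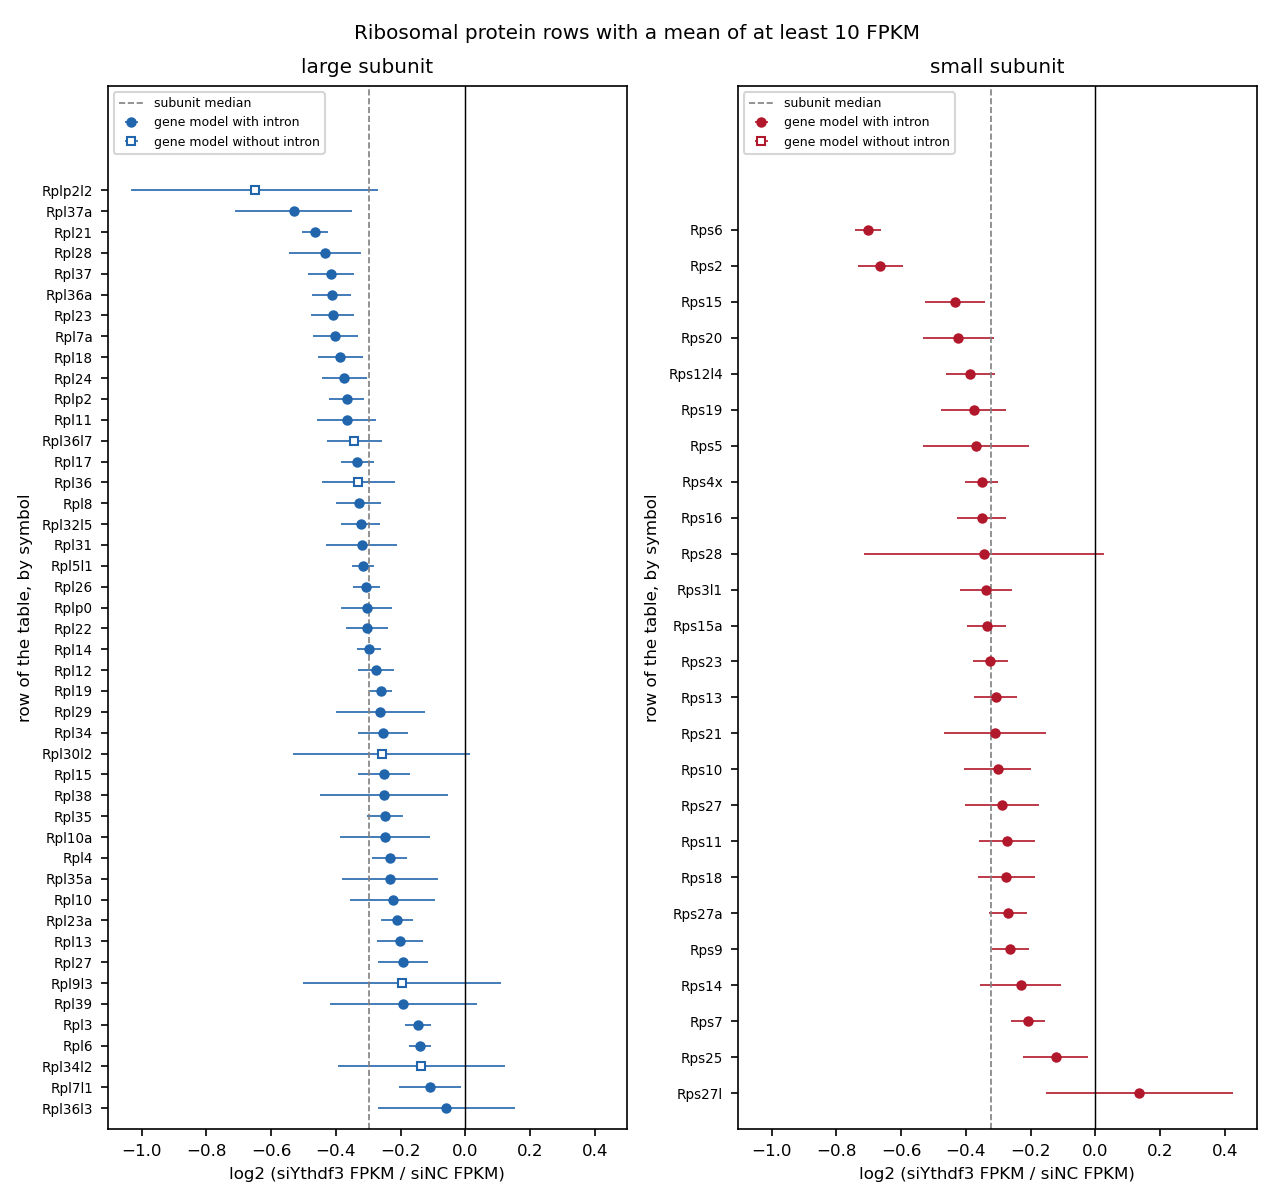
Log2 of the FPKM ratio (siYthdf3 over siNC, no pseudocount) for 45 of the 46 large and 25 of the 27 small subunit rows averaging at least 10 FPKM, each with its exact 95% counting interval. Filled circles are gene models with an intron, open squares models without, and the dashed line is the median of all rows of the subunit at that level. Rps6 and Rps2 stand left of the other small subunit rows, and Rps27l is the single row right of 0.

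Both subunits were lower in siYthdf3. In summed reads the small subunit was lower by more, with 2 rows of low ratio in its sum. Over rows that passed the filter the median log2 ratio was -0.26 in 61 large subunit rows and -0.31 in 38 small subunit rows, a difference of 0.05, large minus small. With a mean of at least 10 FPKM, 46 of 46 large subunit rows and 26 of 27 small subunit rows were below 0, with medians of -0.30 and -0.32. At least 1.2-fold lower were 25 of these 46 large subunit rows and 22 of these 27 small subunit rows. The rule of 1.2-fold, at -0.26, lies close to both medians. In summed reads, large subunit rows had a share ratio of 0.817 (interval 0.811 to 0.822) and small subunit rows 0.775 (interval 0.768 to 0.782). The small subunit sum, 98751 reads in siYthdf3 and 86869 in siNC, includes 2 rows of low ratio. Rps6 held 9449 and 10481 of these reads (ratio 0.614) and Rps2 held 3177 and 3431 (ratio 0.631). Over both subunits, at a mean of at least 10 FPKM, the pooled ratio was 0.802 with Rps6 and Rps2 and 0.813 without them. The summed ratio of the small subunit alone was not recomputed without them. The gap in summed reads is therefore not read as a difference between the subunits at large. With both left out, the medians were -0.26 for the large and -0.30 for the small subunit. Genes are not replicates and each group is 1 library, so the difference between subunits was not tested.

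**Figure D3:**
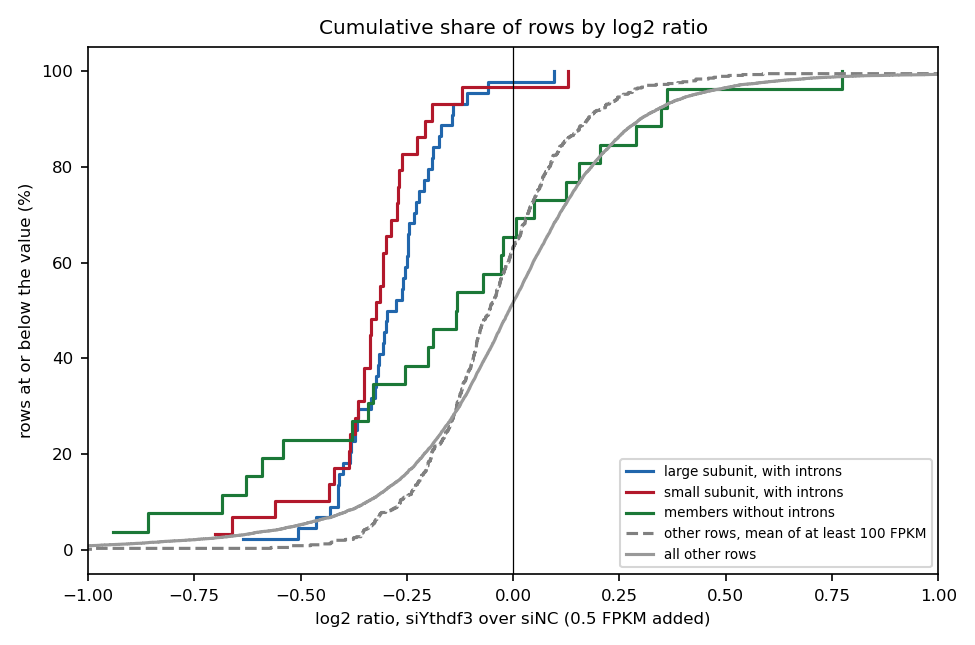
Cumulative percentage of rows by log2 ratio (siYthdf3 over siNC, 0.5 FPKM added, axis limited to -1 to 1) for rows averaging at least 1 FPKM. The intron-bearing large (blue) and small (red) subunit curves lie close together with medians of -0.29 and -0.32, to the left of other rows of at least 100 FPKM (dashed) and of all other rows (grey), while members without introns (green) spread widely around a median of -0.13.

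A pair of small subunit genes stood apart at the low end. Rps6 (ENSRNOG00000007663, chromosome 5, 101371136 to 101374602, minus strand) encodes the protein that S6 kinases phosphorylate downstream of mTOR. It was at 185 FPKM with siYthdf3 and 301 with siNC, from 9449 and 10481 reads, a siYthdf3 over siNC ratio of 0.614 (interval 0.597 to 0.632) and a log2 ratio of -0.70. Rps2 (ENSRNOG00000014179, chromosome 10, 13747301 to 13749163, plus strand), a protein at the entry of the messenger RNA channel, was at 148 FPKM with siYthdf3 and 235 with siNC, from 3177 and 3431 reads. Its ratio was 0.631 (interval 0.601 to 0.662) and its log2 ratio -0.66. Among the other intron-bearing small subunit rows of at least 10 FPKM the lowest was Rps15 at -0.43, with an interval of 0.694 to 0.790, above those of Rps6 and Rps2.

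Most other abundant members lay near a common value, while the intervals of 12 rows lay below it and those of 13 above it. The 73 rows averaging at least 10 FPKM had a pooled ratio of 0.802, and the interval of 48 rows included it. An interval that includes the pooled ratio does not show that the row shares it. For 51 rows the log2 ratio was within 0.1 of the median of -0.31. The SD of the log2 ratio over the 73 rows was 0.13. Intervals lay wholly below the pooled ratio for 12 rows. Besides Rps6 and Rps2 these included Rpl37a, Rpl21, Rps15, Rpl28, Rpl37, Rpl36a, Rpl23 and Rpl7a. Rpl37a, a zinc-binding protein of the large subunit, was at 8.95 FPKM with siYthdf3 and 12.9 with siNC, a log2 ratio of -0.51. Rpl21 was at 166 FPKM with siYthdf3 and 229 with siNC, at -0.46. Without Rps6 and Rps2 the pooled ratio of the remaining 71 rows was 0.813.

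Intervals lay wholly above the pooled ratio for 13 rows, 10 of the large and 3 of the small subunit. Rpl3, a protein near the peptidyl transferase centre, was at 225 FPKM with siYthdf3 and 248 with siNC, a ratio of 0.904 (interval 0.879 to 0.930). Rpl6 had a ratio of 0.907 (interval 0.886 to 0.929). Both were thus lower in siYthdf3, by less than the family's usual difference. Rps25, which in human cells and yeast is needed for translation from some internal ribosome entry sites, was at 24.0 FPKM with siYthdf3 and 26.1 with siNC, at -0.12. Its span overlaps Cenatac and Trappc4 on the opposite strand, and the sources used here do not say whether counting used strand. Rpl19, Rpl35, Rpl4, Rpl23a, Rps7, Rpl13 and Rpl27 lay between -0.26 and -0.19. The last 3 were Rpl7l1, Rpl36l3 and Rps27l.

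Members are described next by their place in the ribosome. Rpl5 and Rpl11 form a particle with 5S ribosomal RNA and, when free, bind the p53 inhibitor Mdm2. The row of Rpl5 was at 249 FPKM with siYthdf3 and 310 with siNC, a log2 ratio of -0.32, and Rpl11 was at 88.9 FPKM with siYthdf3 and 115 with siNC, at -0.36. Rpl23, which also binds Mdm2, was at 176 FPKM with siYthdf3 and 233 with siNC, at -0.41. In the stalk that recruits elongation factors, Rplp0 was at 99.9 FPKM with siYthdf3 and 123 with siNC, at -0.30. The row named Rplp1 was at 5.26 FPKM with siYthdf3 and 5.98 with siNC, with an interval of 0.728 to 1.06. It overlaps Tifab on the opposite strand, and the row of Tifab had 257 reads in siYthdf3 and 199 in siNC, against 258 and 200 for the Rplp1 row, so its reads cannot be assigned to Rplp1. It shares none of the neighbours of a RefSeq gene of that number, so its locus was not matched by name.

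The 8 rows of proteins that line the tunnel or its exit (Rpl4, Rpl17, Rpl19, Rpl23a, Rpl26, Rpl31, Rpl35 and Rpl39) were all below 0, between -0.33 and -0.19, with 3 at least 1.2-fold lower. The 5 rows of proteins at the messenger RNA entry or decoding centre (Rps2, the row of Rps3, Rps9, Rps15 and Rps23) were below 0 too, with a median of -0.34 and 4 at least 1.2-fold lower. Rps3, also known as a DNA repair protein, was at 67.7 FPKM with siYthdf3 and 85.6 with siNC. Of 15 rows of genes mutated in human Diamond-Blackfan anemia, 15 were below 0 and 10 were at least 1.2-fold lower, with a median of -0.31. Among them was Rps19, needed to mature small subunit RNA, at 42.1 FPKM with siYthdf3 and 54.6 with siNC, a log2 ratio of -0.37. Rps14 was at -0.23, Rpl10, which sits by the P site, at -0.22, and Rpl38, known in mouse embryos for translation of Hox messenger RNAs, at -0.25. Of all rows 15.4% were at least 1.2-fold lower, and of members averaging at least 10 FPKM 64.4% were. The counts by role are therefore not read as results about the roles. The role groups were drawn up after the values were seen.

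Rps27a encodes a ribosomal protein fused to ubiquitin. It was at 221 FPKM with siYthdf3 and 266 with siNC, a log2 ratio of -0.27. Fau, which encodes a ribosomal protein fused to a ubiquitin-like part, has a name outside the rule. It was at 67.5 FPKM with siYthdf3 and 75.6 with siNC, at -0.16. Rpsa, a small subunit protein also known as a laminin receptor, was at -0.37 and Rack1, a scaffold on the small subunit head, at -0.32. The 4 measured ribosomal protein genes with names outside the rule had intervals below 1.

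**Figure D4:**
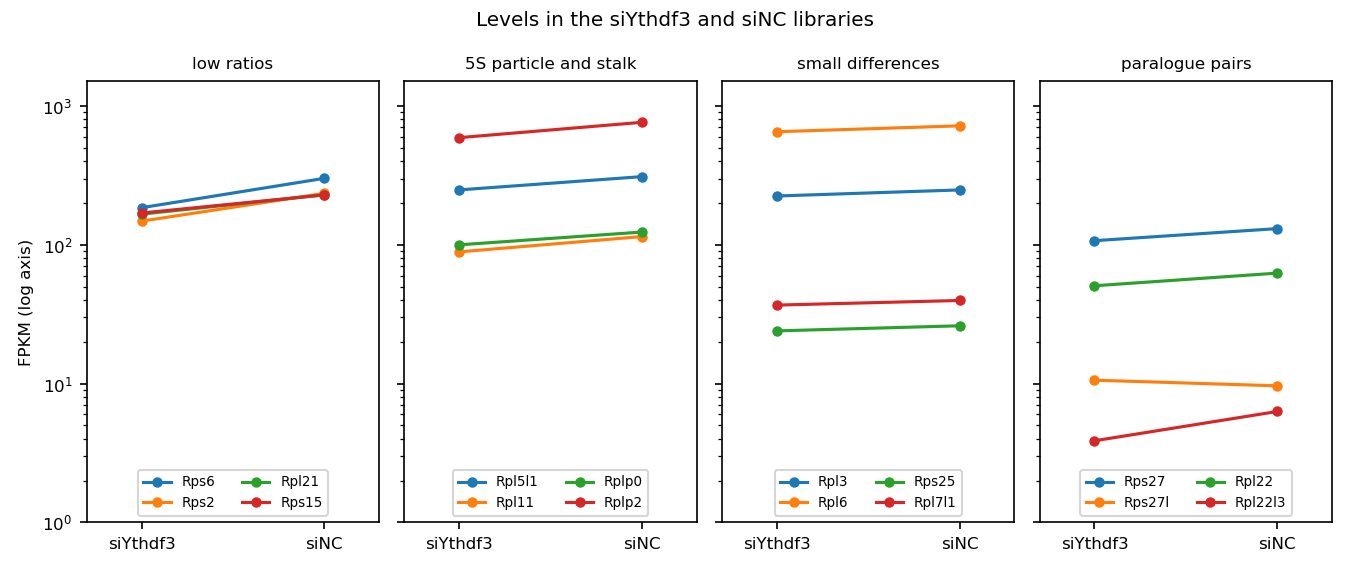
FPKM (log axis) in the siYthdf3 library (left) and the siNC library (right) for 16 members, 1 line per row of the table. Lines for Rps6, Rps2 and Rpl22l3 are the steepest, with ratios of 0.614, 0.631 and 0.615, those for Rpl3 and Rpl6 are nearly level, and Rps27l is the single row with the higher point on the left.

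Paralogues were measured beside their relatives. Rps27l (ENSRNOG00000050473, chromosome 8, 67562483 to 67567418), a relative of Rps27 known in human cells as a p53 target, was at 10.6 FPKM with siYthdf3 and 9.64 with siNC. Its ratio was 1.10 (interval 0.899 to 1.34), from 261 and 162 reads, so no difference was detectable at this depth. Rps27 itself was at 107 FPKM with siYthdf3 and 131 with siNC, with an interval of 0.757 to 0.886. These intervals do not overlap. The level of Rps27l was 9.89% of that of Rps27 in siYthdf3 and 7.37% in siNC.

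The table's Rpl22l3 row (chromosome 2, 111754687 to 111756623) has the neighbours that RefSeq gives Rpl22l1, the paralogue of Rpl22. It was at 3.87 FPKM with siYthdf3 and 6.30 with siNC, a siYthdf3 over siNC ratio of 0.615 (interval 0.482 to 0.785), from 130 and 144 reads. Rpl22 was at 50.7 FPKM with siYthdf3 and 62.5 with siNC, a ratio of 0.811 (interval 0.775 to 0.848). The level of the paralogue row was 7.65% of that of Rpl22 in siYthdf3 and 10.1% in siNC. Rpl7l1, a relative of Rpl7, was at 36.8 FPKM with siYthdf3 and 39.7 with siNC, with an interval of 0.867 to 0.990. Rpl3l, a striated muscle form of Rpl3, and Rpl10l, a testis form of Rpl10, were below the filter.

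Names in the table do not always mark the locus. Of the 142 rows, 71 have a symbol with a copy suffix, and 11 symbols stand on more than 1 row, 23 rows in all. For 117 rows a RefSeq gene of the same number shared at least 3 of the nearest named neighbours, 4 on each side, and for 9 of these the RefSeq name differed. Rpl32l5, Rpl5l1, Rps12l4 and Rps3l1, all with introns, have the neighbours of Rpl32, Rpl5, Rps12 and Rps3, and are described here as the rows of those genes. The row of Rps12 was at 201 FPKM with siYthdf3 and 263 with siNC, at -0.39. The intron-free row Rpl36 on chromosome 6 has the neighbours of Rpl36l6 and was at 169 FPKM with siYthdf3 and 212 with siNC. The intron-free Rpl36l7 on chromosome 2 was at 349 FPKM with siYthdf3 and 443 with siNC. Their ratios, 0.795 and 0.788, lay close to the pooled ratio of the family.

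Rows with an intron-free gene model were less uniform. Of 56 such rows, 26 passed the filter, 17 below 0 and 9 above. Their median was -0.13, and 5 (19.2%) had an interval below 1, under the share of 22.2% over all rows. The intron-free rows rested on a median of 74 reads over both libraries, where intron-bearing rows rested on 5793. The widest ratios in the family were theirs. Rps20l2 was at 1.55 FPKM with siYthdf3 and 0.699 with siNC, from 13 and 4 reads, with an interval of 0.684 to 9.32. Rps12l9 was at 0.955 FPKM with siYthdf3 and 2.29 with siNC, from 11 and 18 reads. Rpl31l2, at 0.36, Rplp1l1, at 0.35, Rps12l8, at 0.29, Rps23l1, at 0.20, Rpl15l3, at 0.16, and Rps18l1, at 0.05, had intervals that include 1. Rps23l1 overlaps a row on the opposite strand with the same counts, 43 reads in siYthdf3 and 25 in siNC. These reads therefore cannot be assigned to Rps23l1. Rplp2l2, at -0.63 from 114 and 122 reads, had an interval of 0.489 to 0.829. Rps19l3 on chromosome 1, at -0.68, and Rpl32l3, at -0.59, had intervals that include 1.

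Of symbols on more than 1 row, Rpl38 stood on 3. The intron-bearing row on chromosome 10 was at 47.4 FPKM with siYthdf3 and 56.4 with siNC. The row on chromosome 16, which overlaps Grid1 on the opposite strand, was at 4.99 FPKM with siYthdf3 and 9.46 with siNC, from 24 and 31 reads, at -0.86. The row on chromosome 14 had 1 read in siYthdf3 and 0 in siNC. The other symbols had 2 rows each, of which the lesser was far below the greater. For Rps6 it had 9 reads in siYthdf3 and 10 in siNC, with an interval of 0.221 to 1.68. Rpl22 on chromosome 7 had 8 reads in siYthdf3 and 5 in siNC, and Rpl35a on chromosome 6 had 10 in siYthdf3 and 6 in siNC. Rpl7a on chromosome 18 had 68 reads in siYthdf3 and 49 in siNC, at -0.07, whereas the row on chromosome 3 was at 148 FPKM with siYthdf3 and 195 with siNC, at -0.40. For Rpl36l7 the row on chromosome 5 had 6 reads in siYthdf3 and 7 in siNC. The lesser rows of Rpl21, Rpl30, Rps12l4, Rps13 and Rps19l3 were below the filter.

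Sums over rows are less open to the split of reads among copies. Rows were summed by name without the copy suffix, which gave 72 names, of which 69 had at least 100 reads. These names do not cover the whole ribosome. No row matched the rule for Rps24, Rps3a, Rpl13a, Rpl27a or Rpl41. The name Rpl7 held only the row Rpl7l1, and Rpl9 only intron-free copies. Copy-named rows alone stood for Rps26, with 5 reads in siYthdf3 and 5 in siNC, and for Rps29, with 2 and 0. All 69 had a lower share of reads in siYthdf3, with intervals below 1 for 65 and above 1 for 0. The median log2 ratio of the shares was -0.31, with -0.29 over 43 large subunit names and -0.33 over 26 small subunit names. Summed rows of Rps6 had a siYthdf3 over siNC ratio of 0.614 (interval 0.597 to 0.632). Summing also joins Rps27 with Rps27l and Rpl22 with Rpl22l3, which are different proteins.

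The 43 rows below the filter had 176 reads in siYthdf3 and 136 in siNC in all. Of these rows, 30 have no intron, 13 had no read in siNC and 3 had none in siYthdf3. Every interval among the 43 included 1. A count of 0 allows up to 3 reads, which is 0.133 FPKM with siYthdf3 and 0.195 with siNC for a model of 1 kilobase. The row just inside the filter was Rpl35a on chromosome 6, with a mean of 1.03 FPKM, and the row just outside was Rpl15l1, with a mean of 0.935 FPKM.

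Ribosomal protein genes host small nucleolar RNAs, guides of ribosomal RNA modification, in their introns. Within the spans of 26 members that passed the filter lay 46 rows of at most 150 bases on the same strand, such as Snord15b in the row of Rps3 and Snora64 in Rps2. Together these rows had 518 reads in siYthdf3 and 360 in siNC, a share ratio of 0.981 (interval 0.856 to 1.12). The interval lies above the ratio of 0.802 of the family. The library preparation was made for messenger RNA, and such rows can hold reads of unspliced host RNA. On the opposite strand, 16 members that passed overlapped another row, among them Rps18 with Wdr46 and Rpl4 with Zwilch.

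Other genes of ribosome supply were described by the same measure. Of 65 measured genes of ribosome biogenesis and RNA polymerase I, 7 were at least 1.2-fold lower and 0 were at least 1.2-fold higher, where 15.4% and 12.4% of all rows were, so the share of lower genes (10.8%) was under that over all rows. Their median was -0.12, 57 were below 0, and 34 had an interval below 1 and 2 above. The largest differences were those of Nop10, of the RNA pseudouridylation complex, at -0.35, Nip7 at -0.32, Ebna1bp2 at -0.31 and Fbl, the methyltransferase fibrillarin, at -0.31. Noc3l was the highest at 0.13. Of 62 measured mitochondrial ribosomal protein genes, 20 were at least 1.2-fold lower and 0 higher, with a median of -0.15. Mrpl46 was at -0.69, Mrpl10 at -0.50, Mrps27 at -0.46 and Mrpl2 at -0.39.

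Among genes outside the family whose messenger RNAs are described as TOP messages, all 18 measured were below 0 with an interval below 1. These genes are abundant, and 51.9% of other rows of at least 100 FPKM had such an interval. At least 1.2-fold lower were 5 (27.8%), against 15.4% of all rows, and the median was -0.23. Vim, which is also a progenitor marker, was at -0.99. The elongation factor genes Eef1b2 and Eef1d were at -0.35 and -0.30, and the initiation factor gene Eif3f was at -0.30. Of 22 measured regulators of TOP messages and ribosome supply, 2 were at least 1.2-fold lower and 1 at least 1.2-fold higher, both under the shares of 15.4% and 12.4% over all rows. Their median was -0.04. Eif4ebp1 and Eif4ebp2, which restrain initiation until mTOR phosphorylates them, were at -0.51 and -0.33. Mdm2 was at 0.29 and Tsc1, an mTOR restraint, at 0.26.

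**Figure D5:**
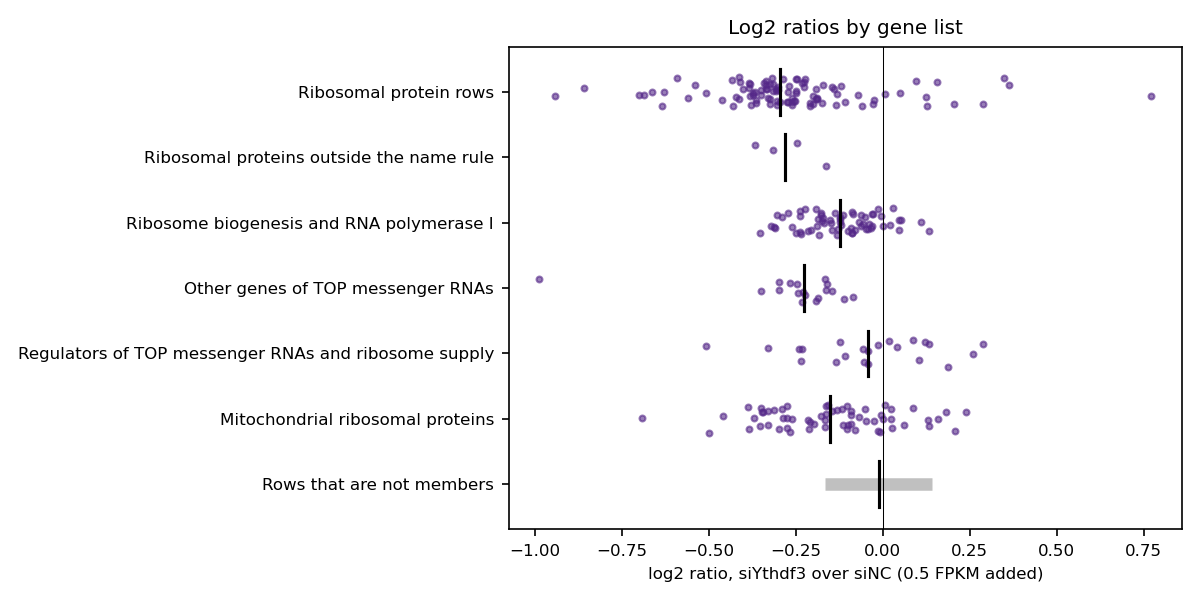
Log2 ratio (siYthdf3 over siNC, 0.5 FPKM added) of each measured gene, 1 point each, for ribosomal protein rows and 5 other lists, with black bars at the medians and a grey band between the quartiles of rows that are not members. Medians run from -0.30 for ribosomal protein rows to -0.04 for regulators of TOP messages.

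The libraries also differed in the targeted gene and in markers of cell type. Ythdf3 was at 6.93 FPKM with siYthdf3 and 9.38 with siNC, a ratio of 0.739 (interval 0.675 to 0.809). Lists of markers are given by their counts at 1.2-fold and their sums. Over all rows that passed the filter, 15.4% were at least 1.2-fold lower and 12.4% at least 1.2-fold higher. All 14 pan-neuronal markers were measured, 0 lower and 6 higher, and summed to 2185 FPKM with siYthdf3 and 1880 with siNC. Cell cycle genes, 15 of 15 measured, were all lower and summed to 230.2 FPKM with siYthdf3 and 447 with siNC. Radial glia and progenitor markers, 10 of 10, had 7 lower and 0 higher and summed to 1398 FPKM with siYthdf3 and 2074 with siNC. Markers of dividing and progenitor cells were thus lower in siYthdf3. Astrocyte markers, 8 of 8, had 2 lower and 3 higher, with a median log2 ratio of -0.02. Their sums of 243 FPKM with siYthdf3 and 171 with siNC turned on Gfap, at 141 FPKM with siYthdf3 and 68.2 with siNC, while Gja1 was at -0.68. The glial list thus had no common direction. Oligodendrocyte lineage markers, 8 of 8, had 5 lower and 0 higher among the 7 that passed the filter. They summed to 61.5 FPKM with siYthdf3 and 75.0 with siNC. Mog held much of both sums, at 39.0 FPKM with siYthdf3 and 37.8 with siNC, a log2 ratio of 0.04. Pericyte and fibroblast markers, 7 of 8, had 3 lower and 1 higher among the 5 that passed, with a median of -0.59. Their sums of 153 FPKM with siYthdf3 and 131 with siNC were nearly all Acta2, at 147 FPKM with siYthdf3 and 121 with siNC, and Lum was at 0 in siNC. The remaining lists were at low levels. Microglia markers, 7 of 8, summed to 4.04 FPKM with siYthdf3 and 7.95 with siNC, with Cx3cr1 at 0 in siYthdf3. The 6 endothelial markers summed to 0.753 FPKM with siYthdf3 and 0.991 with siNC. The part of these cells in the ribosomal protein values was not tested. In bulk RNA, fewer cells of a type and less RNA per cell cannot be told apart.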

How the data were processed

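Messenger RNA of E18 rat cortical neurons was sequenced in 1 siYthdf3 and 1 siNC library, assigned by title. cDNA molecules carried a random identifier, per the labels' protocols. The tools listed in the submitters' processing notes are StringTie 2.1.4, edgeR 3.40.2, STAR 2.7.6a, Subread 1.5.1, fastp 0.23.2 and featureCounts, and their roles are not stated. For identifier collapsing, strand setting, build and annotation, nothing is given in the sources used here. The authors deposited FPKM values per gene with coordinates and gene model lengths in bases, per the file headers.

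Reads and totals were recovered because 100% of values, multiplied by length, came within 0.05 of whole reads. From these came log2 ratios with 0.5 FPKM added, the filter of a mean of at least 1 FPKM, and exact Clopper-Pearson 95% intervals of each ratio, which are too narrow where reads copy 1 molecule. No test was possible with 1 library per group. The 1.2-fold rule, the members and the lists were chosen with earlier results of these data known. Named rows are the 8 of highest mean, the 5 lowest and 5 highest of each subunit, paralogues, symbols on several rows and role groups. A gene model without an intron is one whose length equals its span. RefSeq tables of GRCr8 gave neighbours and start windows. Calculations were tested on simulated data and used Python 3.11.15, numpy 2.4.6, pandas 2.3.3, scipy 1.17.1 and matplotlib 3.10.9. Alternatives were pseudocounts, filters, scalings, removal of a length trend, other size rules and other choices of rows. Some members entered all counts but are not reported here by name.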

Additional observations from a re-analysis of the deposited data

How the results depend on the processing

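The median of the ribosomal protein rows was between -0.31 and -0.22 under every alternative run, and the difference of large minus small subunit medians was between 0.03 and 0.05. The count of rows at least 1.2-fold lower, 55, was 36 after a trend over gene length was removed, 8 under a 1.5-fold rule (3.95% of all rows) and 0 under a 2-fold rule. Members are shorter than most genes, and the 1.2-fold limit lies near their median. The count was 43 after rescaling to TPM, where the median of the members was -0.25 and that over all rows 0.04. It was between 42 and 65 under the remaining alternatives, which kept between 67 and 142 members. The share of all rows at 1.2-fold was not computed under the alternatives, so these counts have no matching share beside them. Without Rps6 and Rps2 the count was 52 and the median -0.28, and with intron-bearing rows alone they were 46 and -0.31, both alternatives chosen after seeing the data. For the 73 members with a mean of at least 10 FPKM, 503 of 511 values under other pseudocounts and scalings were below 0. The exceptions were Rps27l, above 0 throughout, and Rpl36l3, at 0.02 after the length trend was removed. No paired analysis was possible because each group has 1 library, and leaving out a library was not possible either. Depth limits rows of few reads, mainly copies without introns.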
